A study of Mus musculus with 6 samples.

Results

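Bone morphogenetic protein (BMP) signalling was followed here through 10 genes chosen by symbol: the ligands *Bmp2*, *Bmp4* and *Bmp8b*, the receptors *Bmpr1a* and *Bmpr2*, the feedback inhibitors *Smad6* and *Smad7*, and the Id target genes *Id1*, *Id2* and *Id3*. The choice was made with earlier results of these data known. All 10 were found among the 56884 genes of the count files, and 9 were abundant enough to test. BMP ligands bind pairs of type I and type II receptor kinases, which phosphorylate SMAD1, SMAD5 and SMAD9. These join SMAD4 in the nucleus and switch on target genes, among them the Id genes and the inhibitory Smads that damp the pathway. In the small intestine BMP signalling is known to be strong in the villus, where it drives the maturation of enterocytes, and to be held low at the crypt base by secreted antagonists, which protects the stem cells.

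The counts come from 6 RNA sequencing libraries of Lgr5-GFP-positive cells sorted out of organoids of the mouse small intestine, cultures of epithelium that lack the stroma of the tissue. Every culture carried the same alleles, Villin-CreERT2, Lgr5-EGFP-IRES-CreERT2 and Ythdf2 fl/fl. CreERT2 is a Cre recombinase that acts once 4-hydroxytamoxifen (4-OHT) binds it, and villin and *Lgr5* drive it in intestinal epithelium and in stem cells. YTHDF2 is a reader of m6A, a methyl mark on messenger RNA that it links to RNA decay. Cultures were given 4-OHT at 0.5 µM or its solvent ethanol (EtOH), and cells were collected 4 or 6 days after that. There were 2 EtOH and 2 4-OHT libraries at day 6 and 1 of each at day 4. All 4 groups hold the floxed gene and both CreERT2 alleles, and a 4-OHT treatment of cells without the floxed gene was not analysed here. The labels do not say whether the replicates came from separate cultures or animals, so p-values measure only the spread between these libraries. The age and sex of the animals and the composition of the culture medium, which for intestinal organoids commonly includes the BMP antagonist noggin, are not given in the sources used here.

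Library totals ran from 14345379 to 21461835 gene counts. *Ythdf2*, the gene to be deleted, went against the labels: its level was 76.1 to 82.9 CPM (counts scaled to the library total, with TMM scaling between libraries) in the 3 EtOH libraries and 168 to 208 CPM in the 3 libraries labelled 4-OHT. Counts per gene cannot show whether the floxed exons were present, so directions below are those of the libraries labelled 4-OHT against those labelled EtOH. Epithelial markers were abundant, with a summed level over 6 genes of 4966 to 7382 CPM. Of 8 stromal markers 7 stayed under 1 CPM in every library, and of 4 endothelial markers all 4 did. The most abundant stromal marker, *Pdgfrb*, averaged 2.42 CPM. Of 6 immune markers 4 stayed under 1 CPM and the summed level was 5.09 to 10.2 CPM, most of it *Cd68*. The sorted reporter gene *Lgr5* was present at 209 to 369 CPM. In these bulk samples, fewer cells of a type and less RNA per cell cannot be told apart.

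SMAD1 and SMAD5 are known to bind a GC-rich element, GGCGCC, and SMAD4 a GTCT nearby, so the bases upstream of the members were searched for these letters, because the 3 Id genes were all higher at day 6 in the libraries labelled 4-OHT. The windows were the 2000 bases before the canonical transcript start in GENCODE M39 on GRCm39. *Smad7* was left out of the search, which covered 9 members. The joined form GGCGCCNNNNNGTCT, on either strand, was found in 1 of the 9, *Id2*, and in 0.152% of 21770 protein-coding windows. The letters GGCGCC alone, which the joined form contains and which read the same on both strands, were found in 5 of the 9 (*Id1*, *Id2*, *Bmpr1a*, *Bmpr2* and *Smad6*), in 18.3% of all windows and in 23.4% of the 12308 windows of genes tested at day 6. The palindrome GTCTAGAC was found in 0 of the 9 and in 1.77% of all windows. The *Id2* match lies 1571 to 1585 bases before the start. The *Id1* match lies 1088 to 1093 bases before its start, inside the annotated span of *Id1*, which begins farther upstream, but in no exon. The *Id2* stretch lies within the non-coding gene *Gm36287*, also in no exon. Both stretches are printed 5′ to 3′ along the gene's own strand, with the matched letters in capitals.
Id1 (GRCm39 chr2:152577015-152577134, plus strand): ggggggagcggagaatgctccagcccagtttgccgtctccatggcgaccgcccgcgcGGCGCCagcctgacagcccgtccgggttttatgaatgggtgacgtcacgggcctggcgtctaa
Id2 (GRCm39 chr12:25148800-25148919, minus strand): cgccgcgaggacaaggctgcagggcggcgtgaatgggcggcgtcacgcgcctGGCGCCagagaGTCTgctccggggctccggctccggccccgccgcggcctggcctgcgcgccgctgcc
A match describes the letters in the window and is no evidence of binding, and the windows without one say only that these letters are absent there.

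Per kilobase of exon, the most abundant member was the type I receptor *Bmpr1a*, at 13.6 to 21.2 RPKM (CPM divided by the kilobases of exon) over the 6 libraries. In the order of the mean level *Id2* followed at 4.51 to 13.1 RPKM, *Id1* at 3.26 to 17.2, *Bmp2* at 4.29 to 8.38, *Id3* at 2.07 to 13.7 and *Bmpr2* at 1.81 to 4.42. *Smad7* (1.36 to 3.22 RPKM), *Bmp8b* (0.524 to 3.51) and *Smad6* (0.575 to 1.94) were the lowest of the tested members. From *Id2* down, the ranges of neighbours in this order overlapped, so that their order is not fixed beyond the spread of the libraries. Between *Bmpr1a* and *Id2* they did not, but the upper ends of the *Id1* and *Id3* ranges reached into that of *Bmpr1a*. *Bmp4*, which in the intestine is made mainly by the stroma, had 0 counts in each of the 4 day 6 libraries. At their depth a count of 0 allows up to 0.140 to 0.174 CPM, for counting error only. It had 1 count (EtOH) and 2 counts (4-OHT) at day 4, and no fold is given. The sorted cells thus had reads for *Bmp2* and both receptors, while *Bmp4* was at or under the detection limit of 3 counts in all 6 libraries.

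**Figure D1:**
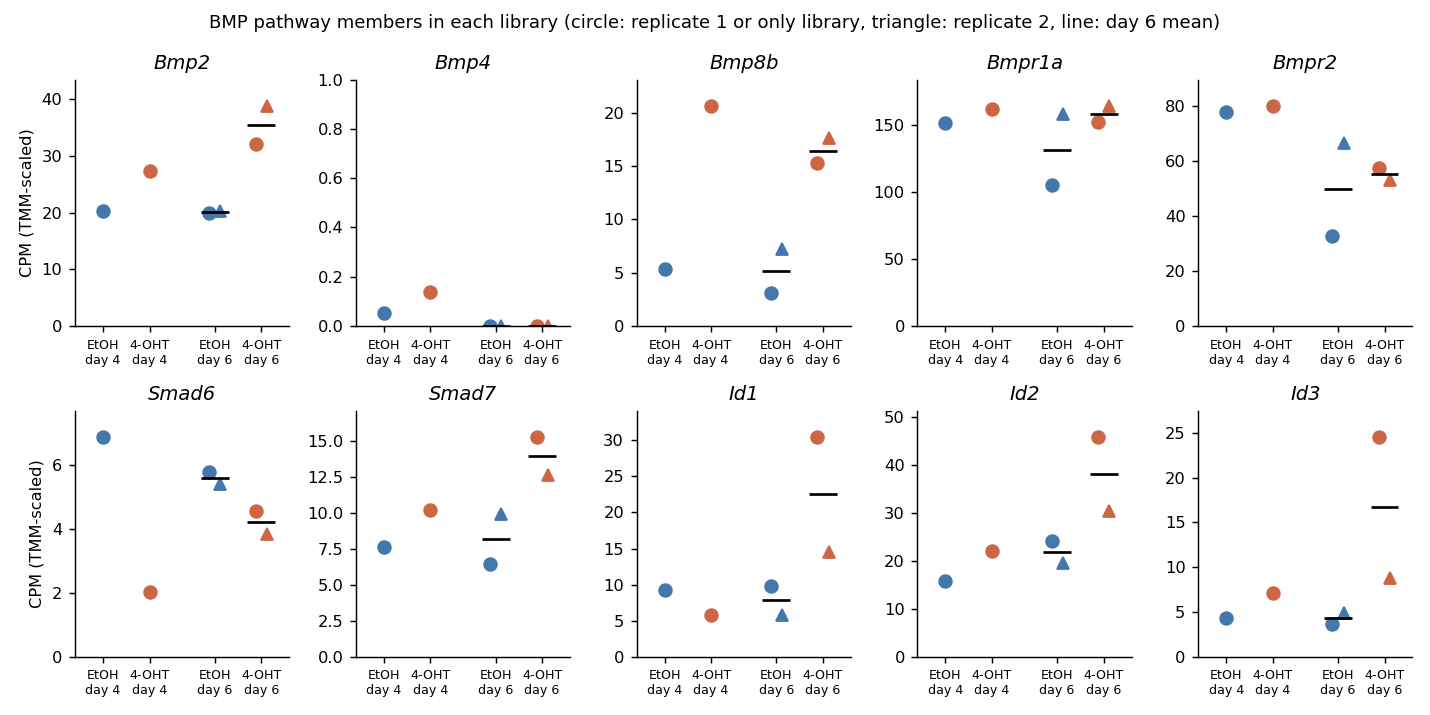
Level of each of the 10 members in every library, in TMM-scaled CPM (vertical axis, from 0), by treatment and day; circles are the only library of day 4 or replicate 1 of day 6, triangles are replicate 2, and black lines are the means of the 2 day 6 libraries. *Bmp2*, *Bmp8b*, *Smad7*, *Id1*, *Id2* and *Id3* show both 4-OHT libraries of day 6 above both EtOH libraries, *Smad6* shows both below, and *Bmpr1a* and *Bmpr2* overlap.

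At day 6 the libraries labelled 4-OHT had more reads for both detected ligands, for *Smad7* and for the 3 Id genes, at 1.70-fold (*Smad7*) to 3.86-fold (*Id3*). *Smad6* was 1.33-fold lower, and the receptors differed by 1.20-fold (*Bmpr1a*) and 1.11-fold (*Bmpr2*). None of these differences passed the edgeR quasi-likelihood test at a Benjamini-Hochberg adjusted p under 0.05 over all 14066 genes: 0 of 9 tested members were called, where 2.15% of all genes were. The members had 6 unadjusted p-values under 0.05, all of higher genes, against 1408 over all genes tested. DESeq2 called 4 of the 9 (*Bmp2*, *Bmp8b*, *Id1* and *Id3*), all higher, where it called 3.6% of all genes, and limma-voom called 1 (*Bmp8b*), where it called 2.06%. The median log2 fold change of the 9 members was 0.80, beside −0.013 over all genes tested. Both 4-OHT libraries lay above both EtOH libraries for 6 of the 9 members and below them for 1, and over all genes tested these shares were 20.5% and 18.4%. In 5 of those 6 members the day 4 library labelled 4-OHT was also the higher one, and *Id1* was the exception. Over all genes tested, 2877 lay above without overlap at day 6, and 2280 of these were also higher at day 4. Those 2280 are 16.2% of all genes tested, so most genes above at day 6 shared the day 4 direction.

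Of the ligands, *Bmp8b* showed the larger difference. BMP8B is a secreted ligand best known from germ cells and brown fat. Its level was 3.08 and 7.20 CPM in the day 6 EtOH libraries and 15.2 and 17.6 CPM in those labelled 4-OHT. The groups did not overlap, and at day 4 the values were 5.34 CPM (EtOH) and 20.6 CPM (4-OHT), so all 3 libraries labelled 4-OHT were above all 3 EtOH libraries. The day 6 means were 5.14 ± 2.91 and 16.4 ± 1.70 CPM (SD, n = 2 each; log2 fold change 1.68, SE 0.37, edgeR quasi-likelihood adjusted p = 0.055). Without EtOH replicate 1 of day 6 the log2 fold change was 1.19, and without EtOH replicate 2 it was 2.41. The latter passed the edgeR test, as did the fits without either 4-OHT library (1.78 and 1.56), but each then holds 1 library in an arm, assumed to vary like the pair in the other. In the fit of both days, which has a term for day, *Bmp8b* rose 3.41-fold (log2 fold change 1.77, SE 0.28, edgeR quasi-likelihood adjusted p = 0.00799). That call was lost only without the day 4 library labelled 4-OHT (adjusted p = 0.0527, same test). The gene lies on chromosome 4 at 122998923 to 123025892, plus strand, in GRCm39, and 56.9% of its exon bases overlap exons of *Ppie* on the opposite strand. The strand setting of the counting is not stated. Counted without strand, reads of the shared part would be among the ambiguous ones and in neither gene. *Ppie* itself, a peptidyl-prolyl isomerase gene, was at 29.8 and 44.4 CPM with EtOH and 32.5 and 36.6 CPM with 4-OHT at day 6 (log2 fold change −0.11, SE 0.22). At day 4 *Ppie* was at 28.5 CPM (EtOH) and 34.6 CPM (4-OHT). The part of the overlap in the level of *Bmp8b* was not tested. The neighbouring paralog *Bmp8a* had only 4 to 15 counts per library, and reads that fit both copies would be in neither.

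*Bmp2*, the ligand that villus epithelium is known to make itself, stood at 19.9 and 20.3 CPM in the day 6 EtOH libraries and at 32.0 and 38.8 CPM in those labelled 4-OHT. The day 4 values were 20.3 CPM (EtOH) and 27.3 CPM (4-OHT). The 3 EtOH libraries thus lay within 1 CPM of each other across both days, and all 3 libraries labelled 4-OHT lay above them. The day 6 means were 20.1 ± 0.306 and 35.4 ± 4.79 CPM (SD, n = 2 each; log2 fold change 0.81, SE 0.20, edgeR quasi-likelihood adjusted p = 0.0765). Over both days *Bmp2* rose 1.61-fold (log2 fold change 0.69, SE 0.15, edgeR quasi-likelihood adjusted p = 0.0339). Leaving out any single library ended that call (edgeR adjusted p-values 0.0644 to 0.153). The gene lies on chromosome 2 at 133394079 to 133404816, plus strand.

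For the receptors the day 6 groups overlapped, and the size of the difference depended on which EtOH library was used. *Bmpr1a* (chromosome 14, 34132687 to 34225379, minus strand), the type I receptor through which the epithelium responds to BMP2 and BMP4, was at 105 and 159 CPM with EtOH and 153 and 164 CPM with 4-OHT at day 6. At day 4 it was at 152 and 162 CPM. Only EtOH replicate 1 of day 6 stood low, and the groups overlapped. The difference did not pass (log2 fold change 0.26, SE 0.20, edgeR quasi-likelihood adjusted p = 0.791), and its log2 value was −0.00099 without EtOH replicate 1, or 0.59 if replicate 2 was left out instead (SE 0.14, edgeR adjusted p = 0.0798). *Bmpr2* (chromosome 1, 59802544 to 59918173, plus strand), the type II receptor, was at 32.7 and 66.5 CPM with EtOH and 57.3 and 53.0 CPM with 4-OHT at day 6, and at 77.6 and 79.8 CPM at day 4. The day 6 difference of 0.15 on the log2 scale (SE 0.29, edgeR quasi-likelihood adjusted p = 0.942) became −0.27 without EtOH replicate 1 and 0.75 without EtOH replicate 2 (SE 0.16, edgeR adjusted p = 0.0526).

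The feedback inhibitors differed in direction. *Smad6* (chromosome 9, 63860341 to 63929793, minus strand) encodes the inhibitory SMAD that acts chiefly on BMP type I receptors. It was at 5.78 and 5.40 CPM with EtOH and at 4.57 and 3.86 CPM with 4-OHT at day 6. At day 4 it was at 6.89 CPM (EtOH) and 2.04 CPM (4-OHT), 134 counts against 30. All 3 libraries labelled 4-OHT were below all 3 EtOH libraries. The day 4 ratio was 0.296 (exact 95% interval 0.192 to 0.443, counting error only). On the log2 scale the day 6 difference was −0.41 (SE 0.32, edgeR quasi-likelihood adjusted p = 0.790), and that over both days −0.82 (SE 0.31, edgeR quasi-likelihood adjusted p = 0.236). *Smad7*, on chromosome 18, encodes the inhibitory SMAD that damps both BMP and TGF-beta receptors. It was at 6.47 and 9.92 CPM with EtOH and 15.3 and 12.7 CPM with 4-OHT at day 6, and at 7.61 and 10.2 CPM at day 4. The day 6 groups did not overlap, but the day 4 library labelled 4-OHT stood close to the second day 6 EtOH library. Neither the day 6 difference (log2 fold change 0.77, SE 0.29, edgeR quasi-likelihood adjusted p = 0.344) nor that over both days (0.66, SE 0.22, adjusted p = 0.164) passed. Leaving out EtOH replicate 1 brought the day 6 value to 0.49, and leaving out replicate 2 brought it to 1.10. Of the 9 tested members, 1 was past 2-fold higher in the day 4 library labelled 4-OHT (*Bmp8b*), where 4.63% of genes of at least 1 CPM were, and 1 was past 2-fold lower (*Smad6*), where 1.4% were.

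**Figure D2:**
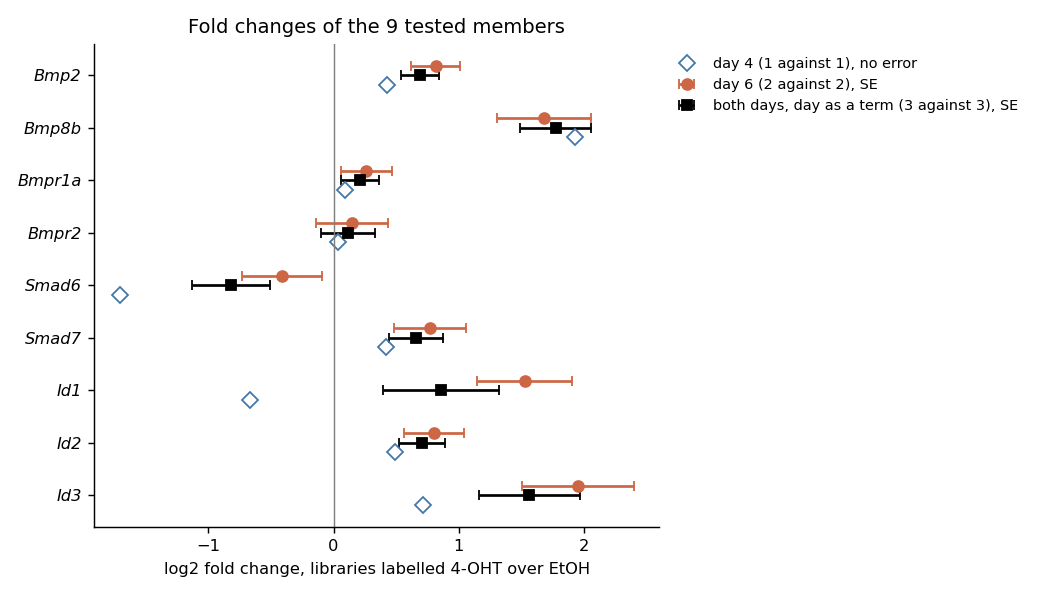
Log2 fold change of the libraries labelled 4-OHT over EtOH (horizontal axis) for the 9 tested members (vertical axis): orange circles are day 6 with SE, black squares are both days with day as a term with SE, and open blue diamonds are day 4, with 1 library a group and no error. *Bmp8b* and *Bmp2* are to the right of 0 in all 3, *Smad6* is to the left in all 3, and *Id1* is at 1.52 at day 6 but at −0.67 at day 4.

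The Id proteins are helix-loop-helix factors without a DNA-binding part, which capture E proteins such as TCF3 and keep them from binding DNA. *Id3* (chromosome 4, 135870808 to 135873066, plus strand) was at 3.71 and 4.93 CPM with EtOH at day 6 and at 24.5 and 8.85 CPM with 4-OHT. At day 4 it was at 4.32 CPM (EtOH) and 7.14 CPM (4-OHT). All 3 EtOH libraries were below the 3 labelled 4-OHT, of which replicate 1 of day 6 stood far above the rest. The day 6 means were 4.32 ± 0.864 and 16.7 ± 11.1 CPM (SD, n = 2 each; log2 fold change 1.95, SE 0.44, edgeR quasi-likelihood adjusted p = 0.061). On the log2 scale the difference fell to 1.03 without 4-OHT replicate 1. Without replicate 2 it came to 2.50, and the call that this gave rests on the higher 4-OHT library alone, assumed to vary like the EtOH pair. Over both days it was 1.56 (SE 0.40, edgeR quasi-likelihood adjusted p = 0.0733). That value was 0.91 without 4-OHT replicate 1 of day 6, and 1.82 without replicate 2, where it passed (edgeR adjusted p = 0.0453).

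*Id1* (chromosome 2, 152566218 to 152579544, plus strand), the target most often used as a readout of BMP activity, was at 9.81 and 5.80 CPM with EtOH and at 30.5 and 14.6 CPM with 4-OHT at day 6. The day 6 groups did not overlap, and replicate 1 was again the higher of the 2 4-OHT libraries. At day 4 the order was the other way, with 9.25 CPM (EtOH) and 5.78 CPM (4-OHT), and a ratio of 0.625 (exact 95% interval 0.477 to 0.813, counting error only). The day 6 difference did not pass (log2 fold change 1.52, SE 0.38, edgeR quasi-likelihood adjusted p = 0.0866). It was 0.90 on the log2 scale without 4-OHT replicate 1. Leaving out replicate 2 of 4-OHT gave 1.95 and a call, again with the higher library alone and the spread of the EtOH pair. Over both days it was 0.85 (SE 0.46, edgeR quasi-likelihood adjusted p = 0.422). Leaving out 1 library moved that value between 0.28 (without 4-OHT replicate 1 of day 6) and 1.53 (without the day 4 EtOH library). It was 1.52 without the day 4 library labelled 4-OHT and 0.41 without EtOH replicate 2 of day 6, and none of these fits called it. The difference between the effects of the 2 days, tested in 1 model of all 6 libraries, was 2.20 on the log2 scale (SE 0.67). Its unadjusted p was 0.00803 and its adjusted p 1.00 by edgeR quasi-likelihood. In that test 0 of 9 members and 0 of 14060 genes (0% of all) were called, while 2 members (*Id1* and *Smad6*) and 235 genes had an unadjusted p under 0.05. DESeq2 called 0 members and 2 genes (0.00631%).

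*Id2* (chromosome 12, 25143798 to 25147282, minus strand), the most abundant of the 3 by CPM, was at 24.0 and 19.6 CPM with EtOH and at 45.7 and 30.4 CPM with 4-OHT at day 6. At day 4 it was at 15.7 CPM (EtOH) and 22.1 CPM (4-OHT). The library labelled 4-OHT was the higher in each day, yet the day 4 4-OHT value lay within the range of the day 6 EtOH libraries. The difference was 0.80 on the log2 scale at day 6 (SE 0.24, edgeR quasi-likelihood adjusted p = 0.171) and 0.70 over both days (SE 0.18, edgeR quasi-likelihood adjusted p = 0.0777). The day 6 value was 0.48 without 4-OHT replicate 1. Leaving out replicate 2 of 4-OHT gave 1.06 and a call, from 1 library against 2 and the spread of the EtOH pair alone. On the opposite strand, single non-coding genes overlap 13.7% of the exon bases of *Id1* and 11.8% of those of *Id3*. Over *Id2* there are 2, with 13.4% and 22.8%.

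The 4-OHT replicate 1 library of day 6, which held the highest level of all 3 Id genes, also had the highest levels of several lists of cell type markers. The summed level of *Id1*, *Id2* and *Id3* was 37.5 and 30.3 CPM with EtOH and 101 and 53.8 CPM with 4-OHT at day 6, and 29.3 and 35.0 CPM at day 4. The 4 Paneth cell markers summed to 1591 and 1119 CPM with EtOH and 3287 and 1303 CPM with 4-OHT at day 6, and to 200 and 909 CPM at day 4. The 4 enteroendocrine markers summed to 350 and 281 CPM with EtOH and 576 and 292 CPM with 4-OHT at day 6, and to 49.1 and 209 CPM at day 4. Both lists therefore set replicate 1 apart from the other day 6 libraries, as the Id genes did. The 6 enterocyte markers summed to 1255 and 1270 CPM with EtOH and 3634 and 2815 CPM with 4-OHT at day 6, and to 894 and 1100 CPM at day 4. The 6 stem cell markers summed to 4525 and 3504 CPM with EtOH and 2321 and 1922 CPM with 4-OHT at day 6, and to 2835 and 2008 CPM at day 4. The 4 tuft cell markers summed to 30.7 and 18.6 CPM with EtOH and 9.46 and 8.26 CPM with 4-OHT at day 6, and to 9.51 and 6.73 CPM at day 4. The 4 goblet cell markers summed to 2866 and 3111 CPM with EtOH and 2359 and 2229 CPM with 4-OHT at day 6, and to 1868 and 2119 CPM at day 4. A sum can be carried by its most abundant genes. At day 6 the log2 fold change was positive for 1 of 6 stem cell markers (median −0.42), 3 of 4 enteroendocrine and 1 of 4 goblet cell markers. It was positive for all 6 enterocyte and all 4 Paneth cell markers and negative for all 4 tuft cell markers. The part of these cell types in the levels of the Id genes, *Bmp2* and *Bmp8b* was not tested.

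**Figure D3:**
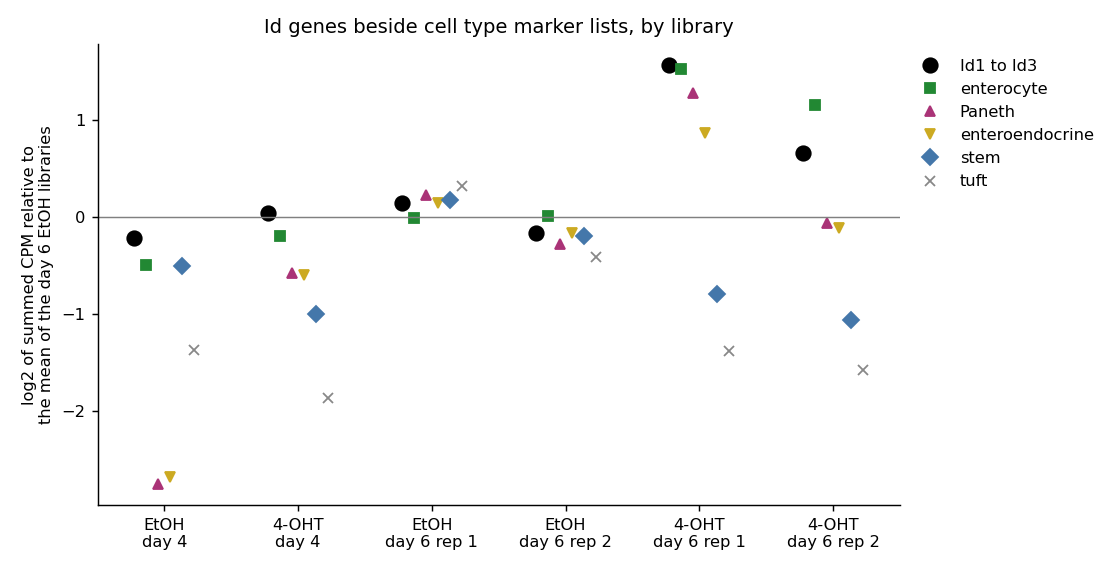
Summed level of the 3 Id genes and of 5 cell type marker lists in each library, as the log2 of the summed CPM over the mean of the 2 day 6 EtOH libraries (vertical axis), by library (horizontal axis); each point is 1 library. The Id, enterocyte, Paneth and enteroendocrine sums are all highest in 4-OHT replicate 1 of day 6, where the Id sum is 101 CPM, and the stem and tuft sums are below the EtOH libraries there.

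The genes whose pattern over the 6 libraries was closest to an Id gene were found by the root-mean-square difference of centred log2 CPM among 10434 genes of at least 5 CPM. For *Id2* they were *Slc43a2* (0.0934), *Arrdc3* (0.118) and *Sult2b1* (0.135), which followed it closely. For *Id1* they were the pseudogene *Gm6831* (0.221), *Adh4* (0.265) and *Arg2* (0.289), and for *Id3* they were *Selenop* (0.292), *Ptprr* (0.333) and *Prss23* (0.358). No gene was thus as close to *Id1* or *Id3* as the 3 nearest were to *Id2*.

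The day of sorting was compared in the same libraries. With treatment as a term, 0 of 9 members differed between day 6 and day 4 by edgeR quasi-likelihood, where 0.356% of all genes did. Among the members *Bmpr2* (−0.59, SE 0.23) and *Id2* (0.63, SE 0.20) had unadjusted p-values under 0.05, with adjusted p-values of 0.338 and 0.257 by that test, and 1693 genes over all had one. The library names carry separate number ranges at each day, and the day cannot be told apart from what those numbers mark.

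Over both days, with 3 libraries against 3, 2 of the 9 tested members were called, *Bmp2* and *Bmp8b*, both higher. Of all genes 3.98% were called by edgeR quasi-likelihood, 3.36% higher and 0.626% lower. The 9 members had 6 unadjusted p-values under 0.05, and 2217 of all 14060 genes tested had one. DESeq2 added *Id2* and *Id3* to these, so that it called 4 members, where it called 5.86% of 14037 genes. DESeq2 gave a p-value for *Bmp4* too, which was too low to test in the fits with a filter on low counts. The comparison over both days contains the 4 day 6 libraries, so its values are no independent check of the day 6 ones.

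The rest of the pathway was described from lists of its parts. Of 12 other genes listed as BMP ligands, among them *Bmp1*, which in fact encodes a protease, 5 could be tested. At day 6 edgeR quasi-likelihood called 0 of these 5, with a median log2 fold change of −0.31 (*Bmp1* at 0.11). The most abundant was *Bmp7*, at 79.8 and 81.6 CPM with EtOH and 65.7 and 64.8 CPM with 4-OHT at day 6. *Bmp3*, a ligand known to oppose other BMPs, was second, at 53.2 and 70.6 CPM with EtOH and 52.0 and 40.4 CPM with 4-OHT, and at 80.0 and 42.2 CPM at day 4. It is named after its values were seen. *Bmp5*, *Gdf2*, *Gdf6* and *Gdf7* had 0 counts in every library. Of 10 other receptors and co-receptors 6 could be tested and 0 were called, with a median of −0.17. The co-receptor *Rgmb* was the most abundant, at 234 and 200 CPM with EtOH and 158 and 120 CPM with 4-OHT at day 6, and at 208 and 159 CPM at day 4. All 3 libraries labelled 4-OHT held less of it than the 3 EtOH libraries, and over both days the difference just missed the threshold (log2 fold change −0.56, SE 0.14, edgeR quasi-likelihood adjusted p = 0.0571).

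The signal transducers showed values close to 0. Of 4 receptor and common Smads 3 could be tested and 0 were called, with a median log2 fold change of −0.04 at day 6. *Smad4*, the common partner, was at 132 and 161 CPM with EtOH and 153 and 150 CPM with 4-OHT. *Smad1* and *Smad5* stood, on the log2 scale, at −0.04 (SE 0.18) and −0.19 (SE 0.19), and *Smad9* was too low to test. Of 9 intracellular modulators, all tested, 0 were called, with a median of 0.09, and the most abundant, *Fkbp1a*, a binding protein of type I receptors, stood at −0.22 on the log2 scale (SE 0.18).

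Of 16 antagonists 4 could be tested at day 6 and 0 were called, with a median of 0.36, and 7 of the 16 had 0 counts in every library. These 7 include *Grem1*, an antagonist that the crypt stroma is known to secrete. *Nog*, the gene of noggin, had 1 count in 1 library. *Twsg1*, a secreted BMP-binding protein and the most abundant of the list, was at 62.3 and 73.7 CPM with EtOH and at 70.2 and 68.5 CPM with 4-OHT at day 6. Of 10 other BMP targets 3 could be tested and 0 were called. *Tbx3*, a T-box factor and the most abundant of these, was at 30.0 and 33.0 CPM with EtOH and at 52.4 and 37.8 CPM with 4-OHT at day 6, with replicate 1 again the higher, and at 36.9 and 30.3 CPM at day 4. In the TGF-beta and activin branch 7 of 11 genes could be tested and 0 were called, with a median of −0.02, and *Tgfbr2*, the type II TGF-beta receptor, differed by 0.20 on the log2 scale (SE 0.24). Over these 7 lists edgeR quasi-likelihood called 0 of 37 tested genes at day 6 and 0 of 36 over both days. Of all genes tested it called 2.15% and 3.98%, so few calls would be looked for in lists of this size. DESeq2 gave p-values for 55 and 60 genes of these lists, some of few counts, and called 1 and 3. Its shares over all genes were 3.6% of 13895 and 5.86% of 14037. At day 6 *Rgmb*, *Nbl1*, *Tbx3* and *Tgfb1* stood at −0.65, 1.26, 0.52 and 1.05 on the log2 scale. In that order they were the only co-receptor, antagonist, other target and TGF-beta gene with an unadjusted p under 0.05. Over all 14066 genes tested by edgeR, 1408 had one.

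Of the 3 E protein genes, whose products the Id proteins capture, 0 were called at day 6 and 1 fell over both days. Over all genes tested, edgeR quasi-likelihood called 2.15% at day 6 (0.171% lower) and 3.98% over both days (0.626% lower). *Tcf3* was at 193 and 180 CPM with EtOH and at 141 and 131 CPM with 4-OHT at day 6, and at 191 and 125 CPM at day 4. All 3 libraries labelled 4-OHT lay below all 3 EtOH libraries, and over both days *Tcf3* fell by 0.51 on the log2 scale (SE 0.10, edgeR quasi-likelihood adjusted p = 0.0273). No E protein gene was called when either day 6 library labelled 4-OHT, or either day 4 library, was left out. *Tcf12* differed by 0.02 (SE 0.17) and *Tcf4* by −0.33 (SE 0.23) on the log2 scale at day 6, where 1 of the 3 had an unadjusted p under 0.05 and DESeq2 called 0.

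BMP signalling is known to be strongest near the villus tip. With earlier results of these data known, 8 genes of the enterocytes there were listed, so their counts describe the list and do not test it. Of these, all tested, 5 rose in the libraries labelled 4-OHT at day 6 and 5 over both days by edgeR quasi-likelihood, where 1.98% and 3.36% of all genes rose, and the median log2 fold change at day 6 was 2.22. Leaving out 1 library gave 4 to 6 at day 6. *Krt20*, a keratin of mature epithelium, changed most (log2 fold change 2.65, SE 0.18, edgeR quasi-likelihood adjusted p = 0.000196), at 22.6 and 19.5 CPM with EtOH and 144 and 122 CPM with 4-OHT at day 6. *Ada*, adenosine deaminase, was at 18.6 and 14.2 CPM against 110 and 75.6 CPM. *Creb3l3*, a transcription factor of lipid metabolism, was at 12.8 and 8.30 CPM against 54.7 and 49.3 CPM, and *Apoa4*, an apolipoprotein, at 4.51 and 2.38 CPM against 15.2 and 15.7 CPM. *Klf4*, a factor of differentiated epithelium, was at 44.1 and 61.2 CPM against 97.6 and 127 CPM. The remaining 3 did not pass at day 6, with log2 fold changes of 2.34 (SE 0.54) for *Nt5e*, 0.55 (SE 0.42) for *Slc28a2* and 0.19 (SE 0.18) for *Egfr*. These genes are also markers of mature enterocytes, whose separate marker list is given above with the Id genes, and *Ada* and *Apoa4* share 20.2% and at least 34.8% of their exon bases with genes on the opposite strand.

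**Figure D4:**
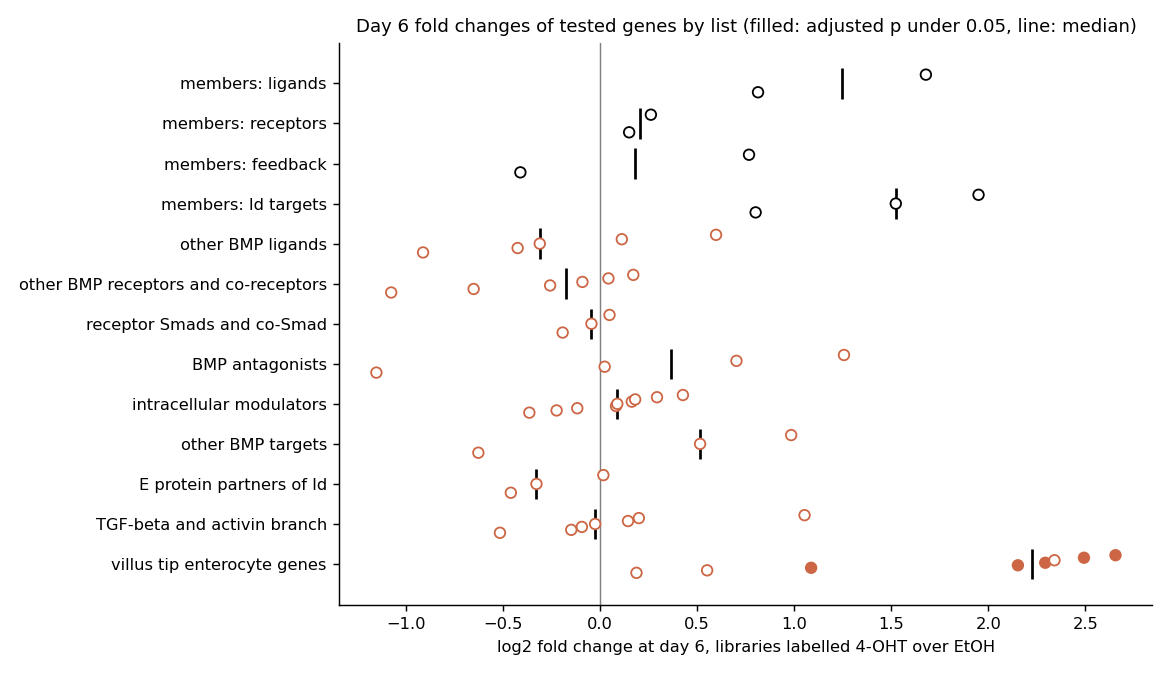
Log2 fold change at day 6, libraries labelled 4-OHT over EtOH (horizontal axis), of every tested gene of 13 lists (vertical axis); each point is 1 gene, black outlines are the members, filled points have an adjusted p under 0.05 by edgeR quasi-likelihood, and vertical lines are list medians. Filled points are found only in the list of villus tip enterocyte genes, whose median is 2.22, and the 3 Id genes lie between 0.80 and 1.95.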

How the data were processed

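The authors deposited 1 file of whole-number read counts per gene for each of 6 libraries. Reads were aligned with STAR on mm39, per the submitters' processing notes; the annotation, the counting mode and the strand setting are not given in the sources used here. The 4 summary lines of unmapped, multimapping, unassigned and ambiguous reads (19.3% to 26.7% of entries) stayed out of all totals. Genes with close copies or overlapping neighbours may therefore be undercounted, for neighbours on the opposite strand only if strand was ignored. Symbols, positions and exon lengths come from GENCODE M39 (GRCm39, the same assembly as mm39), matched by identifier for 56323 of 56884 genes.

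Counts were tested with edgeR 4.0.16 (glmQLFit and glmQLFTest with default settings, TMM scaling, filterByExpr with a minimum count of 10) in R 4.3.3, with Benjamini-Hochberg adjustment over all genes tested and a threshold of 0.05. The day 6 comparison used 4 libraries, the comparison over both days all 6 with day as a term, and the difference between days all 6 in 4 groups, where each lone day 4 library is assumed to vary like the day 6 replicates. Day 4 alone has 1 library per group and was not tested. SE is the absolute log2 fold change over the square root of F. CPM are TMM-scaled, and RPKM are these per kilobase of merged exons. Day 4 ratios have exact conditional intervals for counting error only, as no molecular identifiers are mentioned. Day 4 log2 fold changes use a prior count of 2. Replicates differed by more than sampling noise (chi-square per degree of freedom of 33.2 and 22.9) and were kept apart.

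The members and lists were chosen with earlier results of these data known. Beside the members, genes named are those of each list with an adjusted p under 0.05 at day 6 or over both days (at most 5), otherwise its most abundant gene; others are named from their values. The tests were checked on simulated counts with 200 changed genes. The day 6 test recovered 53% of 2-fold and 88% of 4-fold changes, and 6.62% of its calls were unchanged genes. Over both days these shares were 49%, 83% and 8.97%. A member that was not called may therefore still differ. Alternatives were DESeq2 1.42.0, limma-voom (limma 3.58.1), other scaling and filters, a replicate block, and leaving out each library.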

Additional observations from a re-analysis of the deposited data

How the results depend on the processing

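For the 9 tested members, 221 alternative values over all comparisons kept direction and, where a test was run, side of the threshold. A further 29 came to pass it, 8 no longer passed and 3 reversed. The day 4 values among the 221 are fold changes without a test. At day 6 the counts of genes and of members called were 302 and 0 with the reported settings. They were 725 (2.96% of genes tested) and 5 without a filter, 500 and 4 with DESeq2, and 816 (5.8%) and 5 with a replicate block (*Bmp2*, *Bmp8b*, *Id1*, *Id2* and *Id3*), which also called 3 of 37 genes of the 7 pathway lists. limma-voom, all 6 libraries in 4 groups (2.17%) and robust quasi-likelihood (2.5%, chosen after seeing the data) each called 1 member, *Bmp8b*. Leaving out 1 library gave 172 (without EtOH replicate 1) to 473 genes (without EtOH replicate 2) and 0 to 4 members, the 4 without 4-OHT replicate 2. These day 6 fits hold 1 library in an arm, assumed to vary like the other pair. Over both days, 560 genes (3.98% of those tested) and 2 members were called as reported. Without a filter the counts were 1150 genes (3.63%) and 5 members. With no day term they were 333 genes (2.37%) and 1 member, *Bmp8b*, with *Bmp2* at an edgeR quasi-likelihood adjusted p of 0.0566. DESeq2 called 4 members and 5.86% of genes. Leaving out 1 library gave 305 genes (2.11%, without the day 4 library labelled 4-OHT) to 637 genes (4.36%) and 0 to 2 members. In the difference between days DESeq2 called 2 genes. Without EtOH replicate 1 of day 6 the log2 difference of *Bmpr1a* at day 6 was −0.00099 (0.59 without EtOH replicate 2). That of *Bmpr2* was −0.27 (0.75), and over both days −0.14 (0.43). The cause of these changes was not tested. The replicate numbers are not said to pair libraries, and the deviations of same-numbered day 6 libraries correlated at 0.27. Depth limits *Bmp4*, at or under 3 counts in each library.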

Other observations

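The day 6 EtOH replicate 1 library stood apart for several receptor genes. *Bmpr2* was at 32.7 CPM there and at 53.0 to 79.8 CPM in the other 5 libraries, and *Bmpr1a* at 105 CPM against 152 to 164 CPM. The type II TGF-beta receptor gene *Tgfbr2* was at 104 CPM against 161 to 196 CPM, the activin receptor gene *Acvr2a* at 26.3 CPM against 32.6 to 43.2 CPM, and *Acvr1*, a type I BMP receptor gene, at 16.0 CPM against 20.6 to 23.4 CPM. The nucleoside transporter gene *Slc28a2* was at 4.35 CPM against 11.6 to 12.9 CPM. These genes were chosen after their values were seen, and the difference was not tested.

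*Atoh8*, a helix-loop-helix gene of the list of other BMP targets, had 91 counts in 4-OHT replicate 1 of day 6, 12 in replicate 2, 29 and 16 in the EtOH libraries of that day, and 9 (EtOH) and 2 (4-OHT) at day 4. Its day 6 log2 fold change was 0.98 (SE 0.75).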
